A study of Mus musculus with 5 samples.

Results

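The genes described here encode enzymes that burn long- and medium-chain fatty acids in mitochondria. They are the acyl-CoA dehydrogenases Acadm, Acadl and Acadvl, the trifunctional protein subunits Hadha and Hadhb, the carnitine palmitoyltransferases Cpt1a, Cpt1b and Cpt2, the thiolase Acaa2 and the electron carrier Etfdh. A gene entered where the platform annotation gave it a probe set of its own, and where a gene had several, the brightest on average was taken. By this rule 9 of the 10 listed genes could be measured, out of 12393 genes on the array. They were covered by 16 probe sets. Cpt1b, the carnitine palmitoyltransferase of muscle and brown fat, lies on a probe set that the annotation assigns to 3 genes, so no value is given for it.

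Whole lungs of mice were profiled on 5 arrays, 1 for each condition, each with RNA pooled from several animals. The induced pool came from SM22-tet-BMPR2delx4+ mice given doxycycline. In this line doxycycline switches on a mutant BMPR2, a bone morphogenetic protein receptor that acts as a dominant negative, through an activator, rtTA, under the SM22 promoter, which is active in smooth muscle. For the hypoxic pool FVB/N mice aged 8 weeks had spent 4 weeks in hypoxia, and FVB/N mice of the same age, 8 weeks, gave the wild-type pool. The other pools were SM22-rtTA mice on doxycycline, which carry the activator without the mutant receptor, and SM22-tet-BMPR2delx4+ mice without doxycycline, called uninduced below. For the 3 transgenic pools the titles name 8 weeks, which could be an age or a treatment time. Right ventricular pressure was 50 ± 8 mmHg for the induced and hypoxic pools and 30 ± 3 mmHg for the wild-type, SM22-rtTA and uninduced pools, the kind of error not being given. The number of animals in a pool is not stated. With 1 array a condition there are no replicates, so no difference below has a test, and the number of arrays limits the precision.

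Long-chain fatty acids enter the mitochondrion as carnitine esters, made by CPT1 at the outer membrane and turned back into acyl-CoA by CPT2 at the inner membrane. Each turn of beta oxidation then starts with an acyl-CoA dehydrogenase chosen by chain length. The trifunctional protein and a thiolase complete the turn and release acetyl-CoA. Electrons from the dehydrogenases pass through the electron transfer flavoprotein and its dehydrogenase, ETFDH, to ubiquinone. The pathway is most active in heart, red skeletal muscle, brown fat, liver and the proximal tubule of the kidney, and nuclear receptors of the PPAR and ERR families switch on many of its genes.

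Promoter sequence is shown for 4 members whose intensities are compared below. Acadm, Acadvl and Hadhb were among those far apart between pools, and Cpt1a had ratios of the other sign after induction. Cpt2 and Etfdh were also far apart but are not shown. Each run holds the 250 bases before the transcription start in RefSeq, build GRCm38.p6, and capitals mark AGGTCA, the core that many nuclear receptors bind, or the GC box GGGCGG, on either strand.
Acadm (chr3:153944644-153944893, minus strand): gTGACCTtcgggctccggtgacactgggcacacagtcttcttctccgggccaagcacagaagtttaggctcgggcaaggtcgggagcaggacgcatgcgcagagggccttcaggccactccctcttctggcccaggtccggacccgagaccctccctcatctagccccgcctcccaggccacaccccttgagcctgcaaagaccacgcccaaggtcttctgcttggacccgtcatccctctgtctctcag
Acadvl (chr11:70015429-70015678, minus strand): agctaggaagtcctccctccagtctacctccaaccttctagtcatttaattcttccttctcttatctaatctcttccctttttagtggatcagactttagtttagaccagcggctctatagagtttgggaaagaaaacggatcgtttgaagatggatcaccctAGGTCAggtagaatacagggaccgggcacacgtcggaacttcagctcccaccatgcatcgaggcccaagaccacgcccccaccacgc
Hadhb (chr5:30155003-30155252, plus strand): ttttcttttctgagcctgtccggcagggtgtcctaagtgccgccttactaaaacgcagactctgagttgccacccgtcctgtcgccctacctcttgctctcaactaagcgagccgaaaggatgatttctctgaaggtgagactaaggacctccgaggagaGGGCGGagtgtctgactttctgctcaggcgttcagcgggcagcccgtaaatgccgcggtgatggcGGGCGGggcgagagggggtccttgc
Cpt1a (chr19:3323051-3323300, plus strand): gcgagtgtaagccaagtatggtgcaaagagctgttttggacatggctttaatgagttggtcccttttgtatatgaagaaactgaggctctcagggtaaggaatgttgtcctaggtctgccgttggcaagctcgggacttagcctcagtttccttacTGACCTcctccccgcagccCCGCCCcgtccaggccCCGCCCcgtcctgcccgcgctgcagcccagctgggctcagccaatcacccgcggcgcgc
Of the 9 measured genes 8 had an entry in the promoter table, Acaa2 being the other. AGGTCA or its complement TGACCT lay in 3 of the 8 upstream windows (Acadm, Acadvl and Cpt1a), and in 14.02% of 32851 windows of the same length over all genes. All 3 are among the 4 shown. GGGCGG or CCGCCC lay in 5 of 8 (Acadl, Hadha, Hadhb, Cpt1a and Cpt2), against 32.74% of all windows. Hadha and Hadhb start 272 bases apart on opposite strands, so 228 of the 250 bases upstream of each are the same DNA. A match here is a run of letters, not a site shown to be bound.

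Values below are intensities after each array was shifted to a common median, called scaled intensities. A noise floor was set at 276, the median of all scaled values, and lower values were raised to it. A gene is called higher or lower where its ratio between pools was at least 1.5-fold and the higher value was above the floor. Genes above the floor in at least 1 pool are called measured, 8590 in all, and all 9 fatty acid oxidation genes were above it in every pool.

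Tissue markers were read before the comparisons, because pools that hold other tissue bear on them. Lung genes were present in every pool: all 6 alveolar type 2, 6 alveolar type 1, 4 club cell and 8 endothelial markers were above the floor in each. The wild-type pool stood apart. Of 14 kidney proximal tubule markers, 13 were above the floor in wild type, with a summed scaled intensity of 55200, against 2 to 4 markers and sums of 815 to 2897 in the other pools. Of 7 distal nephron markers, 7 were above the floor in wild type (sum 24299), against 0 to 2 elsewhere (0 to 893). The phosphate transporter Slc34a1 was at 7944 and Miox at 10416 in wild type, and both were at the floor in the other 4 pools. The adrenal and liver lists had their highest sums in wild type too, 7228 over 5 of 6 genes and 13609 over 5 of 7 genes, against at most 1404 and 2199 elsewhere. Of the liver sum Cyp2e1 gave 8689, and it was above the floor in every other pool, at 446 to 1238. Ahsg and Fgb, also of the liver list, were at the floor in all pools. Ttr of liver (445 against 432) and Nr5a1 of the adrenal list (472 against 397) were higher in hypoxia than in wild type. The induced pool stood apart in muscle, and the hypoxic pool less so. All 13 skeletal muscle markers were above the floor in the induced pool (sum 69303), 11 in hypoxia (17821), 3 in wild type (2448), 2 in SM22-rtTA (1751) and 7 in uninduced mice (4805).

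**Figure D1:**
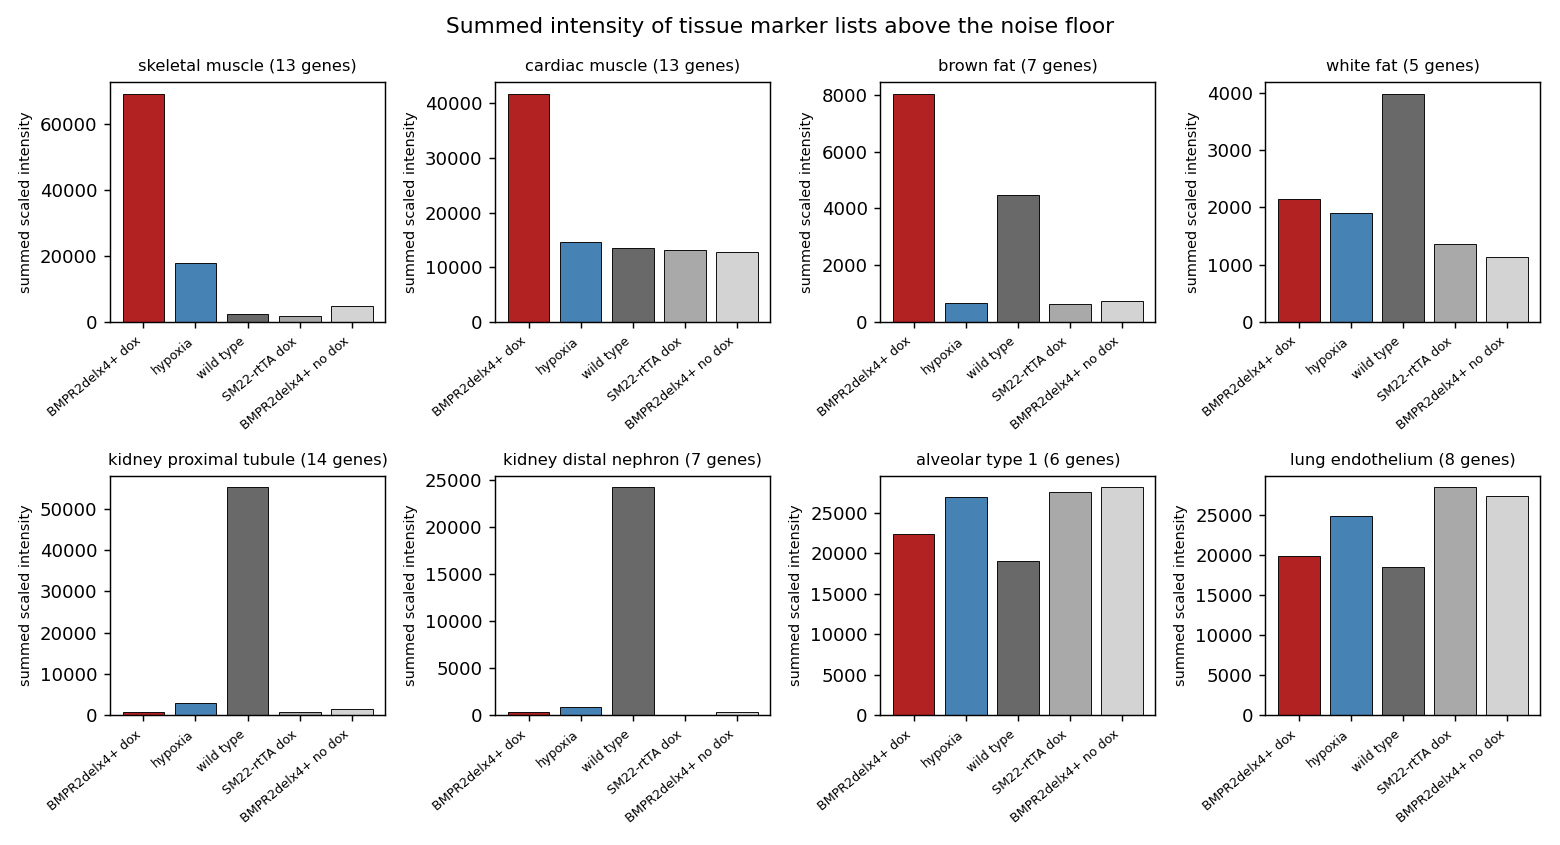
Summed scaled intensity of the marker genes above the noise floor, per tissue list, in each of the 5 pools (1 bar per pool, 1 array each, no error bars). Kidney lists are high in wild type (55200 for proximal tubule), skeletal muscle in the induced pool (69303), and brown fat in both (8043 after induction, 4483 in wild type).

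Across the 5 pools the fatty acid oxidation genes were high in the induced and wild-type pools and low in the hypoxic, SM22-rtTA and uninduced pools. The mean over the 9 genes, each centred on its own log2 average, was 0.35 in the induced pool, -0.47 in hypoxia, 0.81 in wild type, -0.34 in SM22-rtTA and -0.35 in the uninduced pool. Wild type was the highest pool for 7 of the 9 genes and the induced pool for the other 2, Hadhb and Acaa2. In bulk lung, a smaller number of cells of a type and less RNA per cell cannot be told apart, nor can their opposites.

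**Figure D2:**
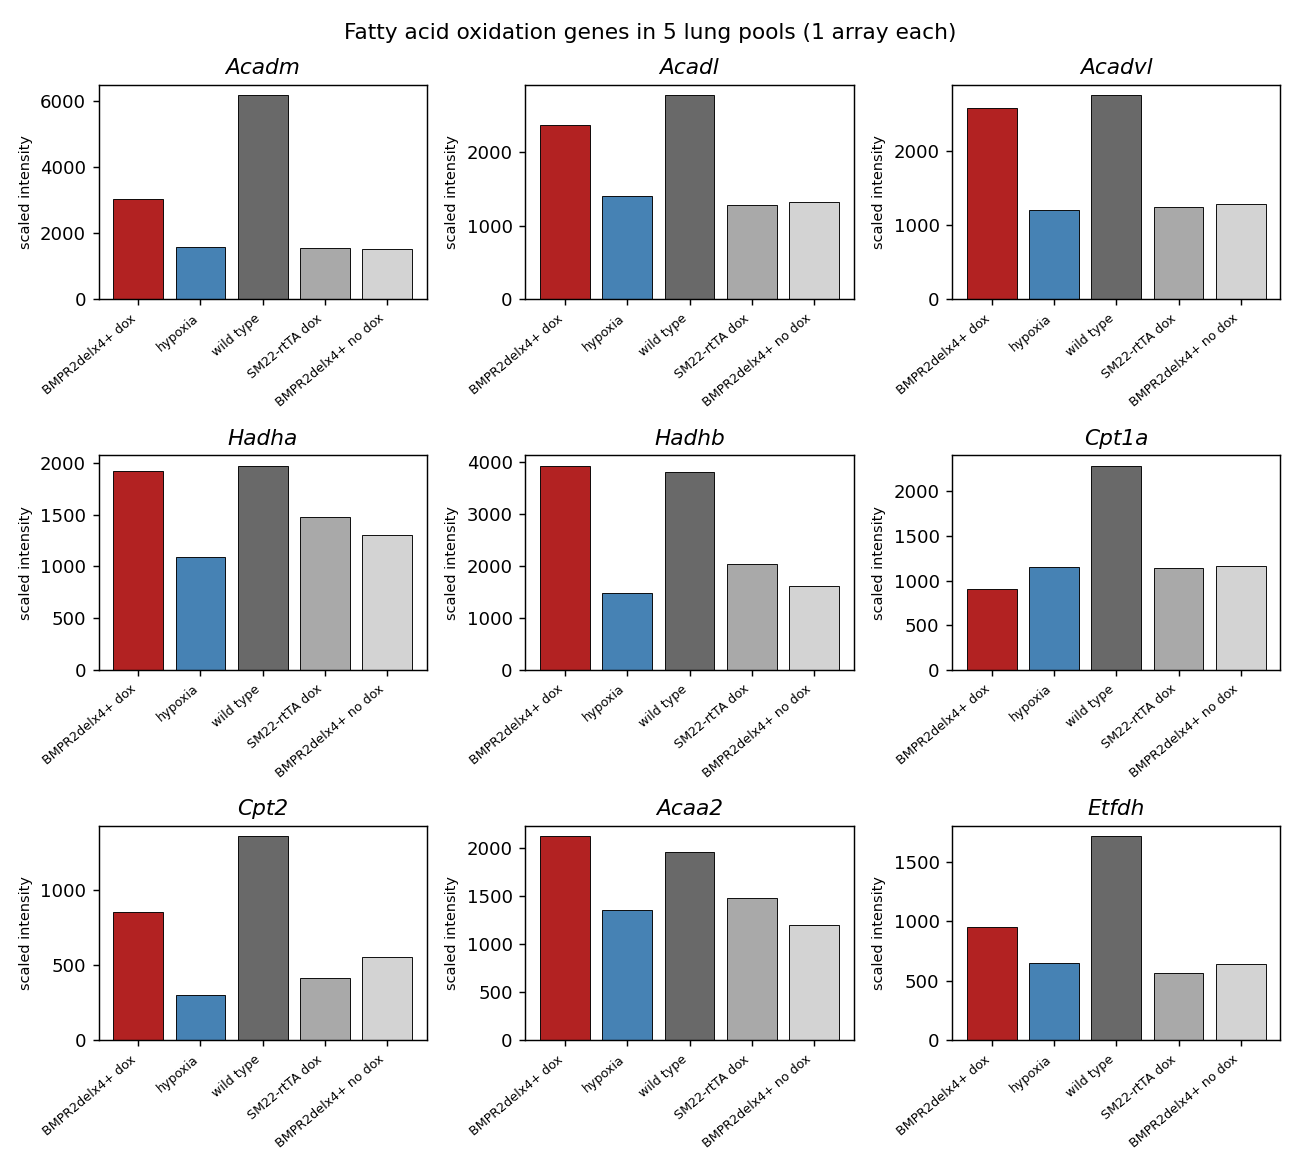
Scaled intensity (linear axis from 0) of the 9 fatty acid oxidation genes in the 5 pools, 1 bar per pool of 1 array, no error bars. For Acadm the bars are 3033 (induced), 1583 (hypoxia), 6175 (wild type), 1552 (SM22-rtTA) and 1512 (uninduced). Cpt1a is the panel in which the induced bar is the lowest, at 902.

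The acyl-CoA dehydrogenases are the chain-length-specific enzymes that open each turn. Acadm, for medium chains, had a scaled intensity of 3033 in the induced pool, 1583 in hypoxia, 6175 in wild type, 1552 in SM22-rtTA and 1512 in uninduced mice. Wild type thus held 4.03 times the mean of the transgenic controls, the largest such ratio among the 9 genes, and was 2.04-fold above the induced pool. Acadl, for long chains, had 2378 in the induced pool, 1404 in hypoxia, 2779 in wild type, 1289 in SM22-rtTA and 1318 in uninduced mice. Acadvl, the very-long-chain enzyme of the inner membrane, had 2576 in the induced pool, 1197 in hypoxia, 2749 in wild type, 1242 in SM22-rtTA and 1277 in uninduced mice. For these long-chain enzymes the induced pool came close to wild type, which was 1.17-fold above it for Acadl and 1.07-fold for Acadvl.

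The trifunctional protein catalyses the later steps of the turn for long chains, with HADHA as the alpha and HADHB as the beta subunit. Hadha had 1929 in the induced pool, 1093 in hypoxia, 1976 in wild type, 1483 in SM22-rtTA and 1308 in uninduced mice. Hadhb had 3936 in the induced pool, 1473 in hypoxia, 3807 in wild type, 2042 in SM22-rtTA and 1624 in uninduced mice. Both subunits had the same order of pools at the low end, with hypoxia lowest, but their ratios differed in size. Induced over uninduced was 1.47-fold for Hadha and 2.42-fold for Hadhb, and wild type over the transgenic mean was 1.42-fold and 2.09-fold. A second Hadhb probe set, had 2610 in the induced pool, 1853 in hypoxia, 2999 in wild type, 1069 in SM22-rtTA and 1198 in uninduced mice. It placed hypoxia above both transgenic controls, where the brighter probe set placed it below them.

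Acaa2, the thiolase of shorter chains, had 2128 in the induced pool, 1360.2 in hypoxia, 1963 in wild type, 1479.7 in SM22-rtTA and 1198 in uninduced mice. It had the narrowest gap between hypoxia and wild type of the 9 genes, with wild type 1.44-fold higher. Its other probe sets gave wider gaps, with log2 ratios of hypoxia over wild type of -0.99 and -0.89, against -0.53 for the brightest. Etfdh, which hands the electrons to ubiquinone, had 952 in the induced pool, 649.8 in hypoxia, 1715 in wild type, 568 in SM22-rtTA and 637 in uninduced mice. Wild type held 2.85 times the transgenic mean and the induced pool stood between wild type and the rest.

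The carnitine shuttle genes differed from each other. Cpt2, the inner-membrane enzyme, had 854 in the induced pool, 304 in hypoxia, 1358 in wild type, 412 in SM22-rtTA and 555 in uninduced mice. Its hypoxic value lay near the noise floor. The transgenic controls were 1.35-fold apart, the widest gap between them among the probe sets that stand for the 9 genes. Cpt1a, the liver-type enzyme of the outer membrane and the step that malonyl-CoA inhibits, had 902 in the induced pool, 1156 in hypoxia, 2290 in wild type, 1141 in SM22-rtTA and 1167 in uninduced mice. It was the member for which the induced pool was the lowest of the 5, while wild type was again the highest. Hypoxia, SM22-rtTA and uninduced mice were nearly level for Cpt1a.

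Induced mice were compared with uninduced mice of the same genotype to find what accompanies the mutant receptor and raised pressure. Of the 9 genes 6 were called higher and 0 lower, against 5.04% of all measured genes called higher and 2.57% lower. The genes called were Hadhb (2.42-fold), Acadvl (2.02-fold), Acadm (2.01-fold), Acadl (1.80-fold), Acaa2 (1.78-fold) and Cpt2 (1.54-fold). Etfdh at 1.49-fold and Hadha at 1.47-fold lay just under the threshold, and Cpt1a had a log2 ratio of -0.37. The median log2 ratio was 0.83, against 0.00 over all measured genes. As a yardstick, the log2 ratios of SM22-rtTA over uninduced had an SD of 0.34 over the 5904 genes above the floor in all pools, a spread that also holds differences of genotype and doxycycline and leaves out the wild-type pool. All 9 ratios after induction were farther from 0 than that SD, as were 22.7% of the 5904 genes. Between the transgenic controls 1 of 9 was, Cpt2 at -0.43, and 27.1% of the genes. Wild type over the transgenic mean, also at normal pressure, put 9 of 9 beyond it, and 52.4% of the genes.

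Against SM22-rtTA mice, which share the doxycycline, 6 genes were also called higher and 0 lower, where 9.72% and 6.11% of all measured genes were. Acadvl was at 2.07-fold, Cpt2 at 2.07-fold, Acadm at 1.95-fold, Hadhb at 1.93-fold, Acadl at 1.84-fold and Etfdh at 1.67-fold, with a median log2 ratio of 0.88. Cpt1a again had a ratio under 0, at -0.34. Acaa2, at 0.52, was not called, and its other probe sets had 0.77, past 1.5-fold, and 0.40. Both comparisons use the same induced array, and 5 genes were called in both. Skeletal muscle, cardiac and brown fat markers moved with these genes. All 13 skeletal muscle markers were called higher after induction. Of 13 cardiac markers, which include genes of slow skeletal muscle, 10 were, with a sum of 41724 in the induced pool against 12857 in uninduced mice. All 4 measured brown fat markers (of 7 with a probe set) were called higher, with Ucp1 at 1600 and Cidea at 1582 against the floor. The larger values of this list were those of Cox8b (2936 against 389 in uninduced mice) and Cox7a1 (1925 against 342). Elovl3, Dio2 and Zic1 were at the floor in every pool. Alveolar type 1 and endothelial sums were lower, at 22369 and 19916 in the induced pool against 28210 and 27481 in uninduced mice. They were lower still in wild type, at 19074 and 18524.5. Alveolar type 2 and macrophage sums were also lower after induction, at 33426 against 42927 and 6173 against 9365. In wild type these were not lower still, at 44433.5 and 9942. The club cell sum was about level, at 42680 in the induced pool against 42126 in uninduced mice. The part of these markers in the result was not tested.

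**Figure D3:**
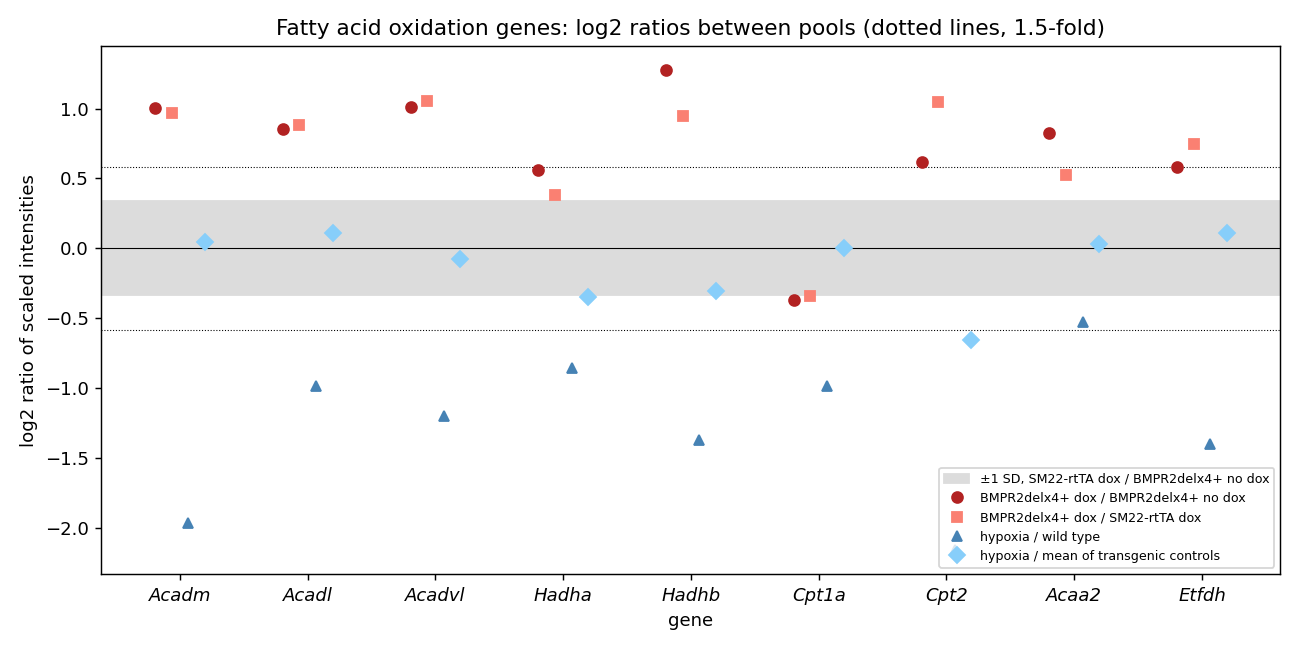
Log2 ratios of scaled intensity for each gene in 4 comparisons (points, 1 array against 1 array, or against the log2 mean of the 2 transgenic controls), with a grey band of 1 SD (0.34) of SM22-rtTA over uninduced and dotted lines at 1.5-fold. The induced pool lies above 0 for 8 of 9 genes in both of its comparisons, and hypoxia lies between -2.16 and -0.53 against wild type but between -0.66 and 0.11 against the transgenic controls.

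Hypoxic mice were compared with wild type, their control of the same strain and age, for raised pressure without a transgene. Of the 9 genes 0 were called higher and 8 lower, against 7.6% and 11.9% of all measured genes, and the median log2 ratio was -1.20, against 0.03 over all measured genes. Cpt2 was 4.47-fold lower and Acadm 3.90-fold lower, and then came Etfdh (2.64-fold), Hadhb (2.58-fold) and Acadvl (2.30-fold). Cpt1a and Acadl were both 1.98-fold lower and Hadha 1.81-fold lower. The place of Cpt2 rests on its low hypoxic value: with the floor at the 70th percentile its log2 ratio was -1.29, against -2.16. Acaa2, at a log2 ratio of -0.53, was not called, but its other probe sets, at -0.99 and -0.89, were past 1.5-fold. Kidney and brown fat markers moved with these genes: 12 of 13 measured proximal tubule markers and all 4 measured brown fat markers were called lower in hypoxia, with brown fat sums of 684 in hypoxia against 4483 in wild type. Miox, Slc34a1, Cubn, Slc13a1, Fbp1, Pck1 and Acsm2 among the tubule markers count as measured through wild type alone. For them a lower value in hypoxia was fixed by that choice. Skeletal muscle markers went the other way, with 9 of 13 called higher and 1 lower. All 6 alveolar type 1 and 7 of 8 endothelial markers also had ratios above 0. So did 3 of 6 alveolar type 2, 2 of 4 club cell and 3 of 4 measured macrophage markers. The part of these markers in the hypoxia ratios was not tested.

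With the wild-type pool replaced by the mean of the 2 transgenic normal-pressure pools, most ratios lay near 0. Of the 9 genes 0 were called higher and 1 lower, against 12.2% and 4.28% of all measured genes, and the median log2 ratio was 0.00. The gene called was Cpt2, at 304 in hypoxia against a mean of 478, a 1.58-fold gap. Acadm (1583 against 1532), Acadl (1404 against 1303) and Cpt1a (1156 against 1154) were close to level, and Hadha and Hadhb had log2 ratios of -0.35 and -0.31. The other Hadhb probe set above the floor had 0.71, past 1.5-fold in the opposite direction. Hypoxia lay above both transgenic controls for 3 genes, between them for 2 and below both for 4. This comparison shares the hypoxic array with the one against wild type, and its controls also differ from the hypoxic mice in genotype, and SM22-rtTA in doxycycline. Skeletal muscle markers were also above the transgenic mean in hypoxia, with 9 of 13 called higher and Acta1 at 5064 against 677 or less in the other pools except the induced one. The brown fat sum was 684 in hypoxia, against 634 in SM22-rtTA and 731 in uninduced mice.

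The wild-type pool was set against the same transgenic mean. Of the 9 genes 7 were called higher and 0 lower, against 16.9% and 10.2% of all measured genes, with a median log2 ratio of 1.09. Acadm (4.03-fold), Etfdh (2.85-fold) and Cpt2 (2.84-fold) were farthest apart, and Acaa2 (1.47-fold) and Hadha (1.42-fold) were not called. The other Acaa2 probe sets had log2 ratios of 0.77 and 0.75, past 1.5-fold. These 3 comparisons share arrays, so their counts are not separate evidence. Wild type is the pool with the highest sums of kidney, adrenal and liver markers. Its brown and white fat sums were 4483 and 3979, against 634 and 1358 in SM22-rtTA and 731 and 1128 in uninduced mice. Whether tissue other than lung accounts for its fatty acid oxidation values was not tested. Between the transgenic controls, SM22-rtTA over uninduced called 0 of 9 genes, where 7.51% of measured genes were called in either direction. An Acaa2 probe set other than the brightest was past 1.5-fold there, at 650 against 382, a log2 ratio of 0.76. The other Acaa2 one had 0.13 and the second Hadhb one -0.16.

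Other enzymes of mitochondrial fatty acid oxidation were called in the same directions, higher after induction and lower in hypoxia than in wild type. Of 16 measured, 7 were called higher and 0 lower after induction, with a median log2 ratio of 0.57, and 6 and 0 against SM22-rtTA. The leading ones were the electron transfer flavoprotein chains Etfa (2182 against 1110) and Etfb (3543 against 2055), the short-chain hydroxyacyl-CoA dehydrogenase Hadh (5689 against 3375) and the thioesterase Acot13 (1096 against 653). In hypoxia against wild type 14 of 16 were called lower and 0 higher, median -1.09. Acad11 was at the floor against 1409, at least 5.10-fold lower, the short-chain dehydrogenase Acads at 327 against 1346, Acot13 at 549.7 against 1762 and the hydratase Echs1 at 822 against 2319. Against the transgenic mean 0 of the 16 were called in hypoxia, with a median of -0.17.

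Peroxisomes shorten very long chains by a separate set of enzymes. Of 12 measured peroxisomal genes 0 were called in either direction after induction, with a median of 0.00. Acox2, Acox3, Ehhadh, Acaa1b and Pecr were at the floor in both the induced and uninduced pools, so the floor fixed their ratios at 0. Of the other ratios 3 were above 0 and 4 below, from -0.17 to 0.44. Against SM22-rtTA 1 gene was called lower, Acaa1b (floor against 465). The carrier protein Scp2 was at 2237 against 2516 and the transporter Abcd3 at 1744 against 1776. In hypoxia against wild type 8 of 12 were called lower, among them Pecr (floor against 3952, at least 14.3-fold), the bifunctional enzyme Ehhadh (floor against 2168, at least 7.85-fold), the carnitine octanoyltransferase Crot (320.5 against 1702) and the thiolase Acaa1b (289 against 1520). Pecr and Ehhadh were at the floor in all pools but wild type. The difference between the mitochondrial and peroxisomal lists after induction was not tested.

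Genes that use the products of beta oxidation, in the citric acid cycle and the respiratory chain, were called in the same directions as its enzymes. Of 22 oxidative phosphorylation genes, 13 were called higher and 0 lower after induction, with a median of 0.68, including Uqcrfs1 (2434 against 1140.4) and Cyc1 (3701 against 1855) of complex III and Ndufa9 (1612 against 914) and Ndufs1 (1481 against 848) of complex I. Of 11 citric acid cycle genes 10 were called higher, median 0.77, including the isocitrate dehydrogenase chains Idh3b (3295 against 1684) and Idh3a (1916 against 1012), Dld (822 against 429) and Sucla2 (2146 against 1204). In hypoxia against wild type all 22 and all 11 were called lower, with medians of -1.18 and -1.19, and against the transgenic mean 0 of either list were called. Ndufs1 was at 575 in hypoxia against 2100.5 in wild type, Uqcrfs1 at 1266 against 4118, Sdha of complex II at 1552 against 4201 and Cox5a of complex IV at 2582 against 6686. Among cycle genes Dld was at 377 against 1256, Dlst at 694 against 2147, Suclg1 at 1349 against 3944 and Fh1 at 884 against 2354.

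**Figure D4:**
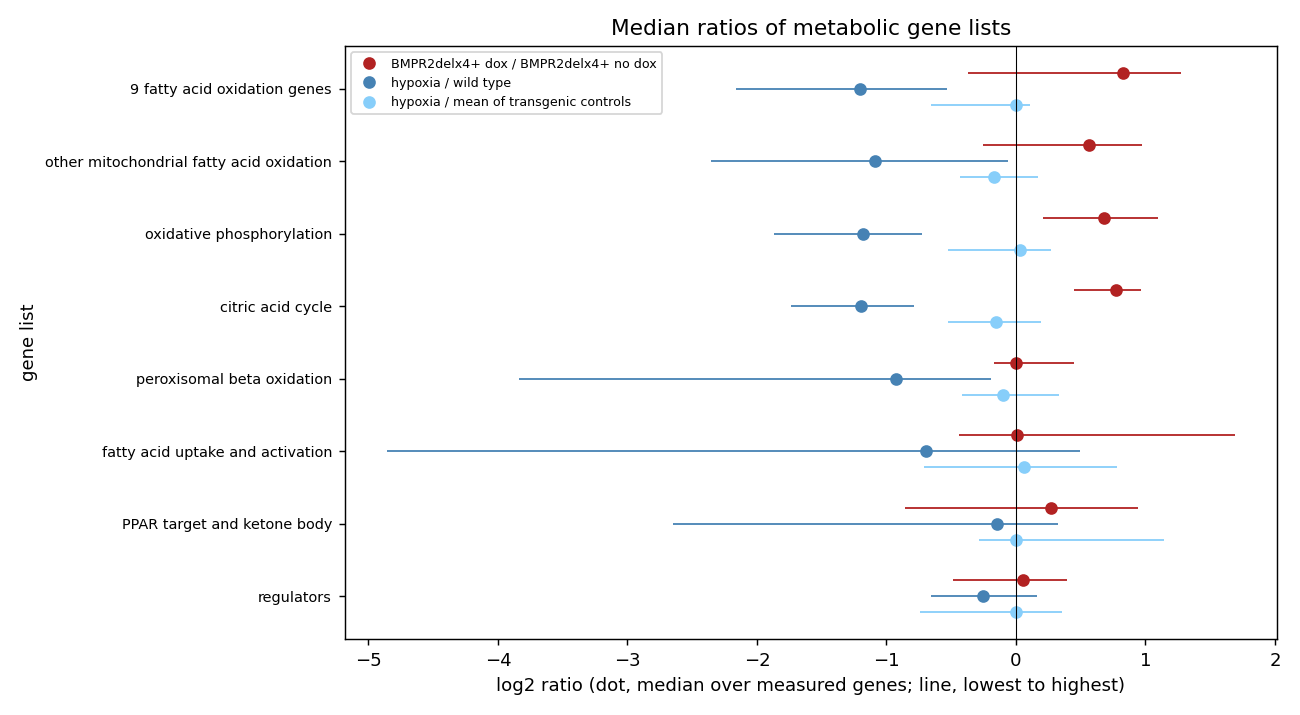
Median log2 ratio (dot) and lowest to highest ratio (line) over the measured genes of 8 lists in 3 comparisons, each of 1 array against 1 array or against the mean of the transgenic controls. After induction the median is 0.83 for the 9 fatty acid oxidation genes and 0.00 for the peroxisomal list, which holds genes at the floor in both pools. In hypoxia the medians lie between -1.20 and -0.15 against wild type and between -0.17 and 0.06 against the transgenic controls.

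Fatty acid supply genes were mixed. Of 10 measured uptake and activation genes 2 were called higher after induction, the binding proteins of muscle and fat Fabp3 (2359 against 744) and Fabp4 (3521 against 1091), and the median was 0.01. Against SM22-rtTA 4 were called higher and 1 lower, with a median of 0.40: Lpl, which frees fatty acids from lipoproteins, was 1.78-fold and the transporter Slc27a4 1.68-fold higher, besides Fabp3 and Fabp4, and Cd36 was the lower one, at a log2 ratio of -0.87. The scavenger receptor Cd36, abundant in lung endothelium, was at 2868 in the induced pool, 4935 in hypoxia, 5095 in wild type, 5256 in SM22-rtTA and 3890 in uninduced mice, and was chosen after its values were seen. In hypoxia against wild type 5 of 10 were called lower, with the kidney and liver transporter Slc27a2 at the floor against 7996, at least 28.9-fold, the carnitine transporter Slc22a5 at 439.7 against 1780.0, Fabp3 at 456 against 1582 and Fabp4 at 2168 against 6266. Against the transgenic mean Fabp4 was called higher in hypoxia, at a log2 ratio of 0.78, and Fabp3 and Slc22a5 lower, at -0.71 and -0.66. Of the enzymes that set malonyl-CoA, Mlycd was at 321 against 305 and Acacb at 395 against the floor after induction. In hypoxia Mlycd was at 349 against 402 in wild type and Acacb was at the floor in both, and Acaca was at the floor in all pools.

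Known regulators of the pathway were mostly near or at the floor. Pparg, Esrrg and Nrf1 were at the floor in all pools, and Ppara and Ppargc1a were above it in wild type alone, at 299 and 338. Of 8 measured regulators 0 were called after induction, where Lpin1 was at 931 against 861 and the mitochondrial transcription factor Tfam at 560.2 against 427, and 1 was called lower in hypoxia against wild type, Lpin1 at 747 against 1177. Lpin1 was at 396 in SM22-rtTA, so that the induced pool was 2.35-fold above that control and 1 of 8 regulators was called higher there. In hypoxia against the transgenic mean 1 of 8 was called lower, Rxra, at a log2 ratio of -0.74. Rxra was above the floor in every pool, from 306 in hypoxia to 579 in uninduced mice. Among 9 measured PPAR target and ketone body genes 3 were called higher and 1 lower after induction. Pdk4, which spares glucose by blocking pyruvate dehydrogenase, was at 1425 against 741, the ketone-using Oxct1 at 1895 against 1109.6, Acat1 at 1918 against 1229, and the lipoprotein lipase inhibitor Angptl4 at 1515 against 2741. Against SM22-rtTA 1 of the 9 was called higher and 0 lower: Pdk4 was at 315 in that pool, while the ratios of Oxct1 (1.21-fold), Acat1 (1.34-fold) and Angptl4 (1.14-fold) did not reach the threshold. In hypoxia against wild type 4 of 9 were called lower, the ketone body dehydrogenase Bdh1 (floor against 1727, at least 6.25-fold), Oxct1 (1081 against 5135), Acat1 (1392 against 5142) and Pdk4 (474 against 736).

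The genes most like the 9 in pattern were sought among 5895 other genes above the floor in all pools, by the root mean square difference of log2 profiles centred on their own mean. The nearest to the mean profile of the 9 were the ATP synthase subunit Atp5o (0.026), succinate dehydrogenase Sdhb (0.056), the dienoyl-CoA isomerase Ech1 (0.065), Cox5a (0.065) and Etfb (0.067), where the median gene was at 0.56. The members themselves lay between 0.11 (Acadl) and 0.43 (Cpt1a) from their own mean. Etfb, Sdhb, Cox5a and Atp5o also stand in the lists above. The likeness is taken over 5 arrays and is a description of them.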

How the data were processed

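Whole-lung RNA was measured on 5 arrays of 1 colour, 1 for each condition, and groups were taken from the sample titles. The deposited values are linear intensities, 1 for each of 22626 probe sets, and how the authors summarised and scaled them is not given in the sources used here. The deposited table had no intensity under 50, and 9.85% to 12.5% of probe sets per array sat at that limit.

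With python 3.11.15, pandas 2.3.3 and numpy 2.4.6, log2 intensities were shifted to a shared median over the 9046 probe sets that exceeded the 50th percentile on each array (shifts of -0.11 to 0.13). Probe sets with 1 gene (20380, of which 20351 were named by gene ID) were kept, while 691 with several genes and 1555 with none listed were not. Ratios, calls, floor and gene choice are as given above, and values at the floor enter ratios and medians as the floor. No test was run.

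Named genes were all members. From each pathway list they were up to 4 called genes with the largest ratio in each main comparison, or the 2 brightest where no gene was called. Genes quoted in all pools at the floor, tissue markers and genes quoted against the transgenic controls were added after their values were seen. The likeness search planned for Cpt1b was not run, since it had no probe set of its own. Members and lists were chosen with earlier results of these data known. Alternatives covered the scaling, floor, pseudocount, fold, probe-set summary and call rule.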

Additional observations from a re-analysis of the deposited data

Results flagged for a closer look

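For 5 genes the raised-pressure pool lay on opposite sides of its own control in the induced and the hypoxic mice, past 1.5-fold both times. Induced over uninduced minus hypoxia over wild type came to 2.97 on the log2 scale for Acadm, 1.84 for Acadl, 2.21 for Acadvl, 2.65 for Hadhb and 2.78 for Cpt2. The difference was not tested, since each condition has 1 array. The share of all measured genes with this pattern was not counted. Singly, 5.04% of measured genes were called higher after induction and 11.9% lower in hypoxia against wild type. Other genes shared the pattern: 13 of 22 oxidative phosphorylation and 10 of 11 citric acid cycle genes were called higher after induction. All 22 and all 11 were called lower in hypoxia against wild type. Wild type is also the pool with the highest sums of kidney, adrenal and liver markers. Against the transgenic mean, hypoxia had log2 ratios of 0.05 for Acadm, 0.11 for Acadl, -0.07 for Acadvl, -0.31 for Hadhb (0.71 with its other probe set) and -0.66 for Cpt2.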

How the results depend on the processing

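Of 90 recomputed counts and medians, 80 stayed within 1.5 times the count or within 1 SD (0.34) of the median, and among 402 recomputed single-gene ratios, 0 of those called changed sign. With 2-fold for a call, 3 of 9 genes were higher after induction, 2 were higher against SM22-rtTA, 5 were lower in hypoxia against wild type and 0 were called in hypoxia against the transgenic mean. When a call also had to lie beyond all 3 normal-pressure pools, 2 were higher after induction (Hadhb and Acaa2), 1 against SM22-rtTA, and 4 lower in hypoxia (Acadvl, Hadha, Hadhb and Cpt2). The share of all measured genes called under either rule was not counted, so these counts have no background beside them. The count of 1 against the transgenic mean became 0 with the floor at the 70th percentile, with a pseudocount of 100 and with the mean of the probe sets, as did the call of Cpt2 it rests on. Of 402 single-gene values 46 moved by over 1 SD. Of 7 other probe sets 4 (of Acadl, Cpt1a and Cpt2) were under the floor in all pools, so the floor fixed their ratios at 0. These ratios are among the 402 values. They could not change sign, and some of them count among the 46 that moved. The Cpt2 probe set among the 4 was above the deposited limit of 50, with 144 in the induced pool, 95.1 in hypoxia, 251 in wild type, 58.3 in SM22-rtTA and 71.1 in uninduced mice. With values as deposited the median of all measured genes moved to -0.14 for wild type and -0.12 for hypoxia against the transgenic mean. Shifts and floor taken from the 4 arrays other than wild type, an alternative chosen after seeing the data, changed no count by over 1.5 times. No paired analysis was possible because each condition has 1 array.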
